A study of Mus musculus with 6 samples.

Results

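The hypoxia-inducible factor (HIF) pathway was followed through 10 genes in mouse embryonic hearts whose cardiac lineage lacks intact Tfam, the gene of mitochondrial transcription factor A. The members were taken by symbol from the 6 deposited tables: Hif1a, Epas1, Arnt, Egln1, Egln3, Vhl, Ndrg1, Bhlhe40, Adm and Ero1l. All 10 were among the 23284 listed genes, and all 10 were among the 10807 tested genes, whose mean was 1 FPKM or more. Hearts came from C57BL/6 embryos at E13.5. Tfam KO embryos had 2 floxed Tfam alleles (Tfam fl/fl; Nkx2.5 IRES-Cre/+). Control embryos had 1 (Tfam fl/+; Nkx2.5 IRES-Cre/+), so that cells with Cre in the controls keep a single intact allele. Both groups carried Cre in 1 copy of the Nkx2.5 locus, which acts in the cardiac lineage, and other cells of the heart keep their Tfam. There were 3 libraries per group, made from 5 hearts each, so the replicates are pools. The comparison asks how the heart's transcripts differ when the cardiac lineage has no intact Tfam.

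HIF is a dimer of an alpha subunit (encoded by Hif1a or Epas1) and the constitutive partner ARNT. In the presence of oxygen the EGLN prolyl hydroxylases mark the alpha subunit and the VHL protein then directs it to the proteasome, so the pathway is controlled mainly at the level of protein and not of mRNA. When oxygen is short the dimer binds hypoxia response elements and raises targets for glycolysis, vessel growth and adaptation. Mitochondria consume most cellular oxygen, and loss of their respiration is known to leave more oxygen for the hydroxylases in cultured cells.

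Promoters are shown so that the core of the hypoxia response element can be seen in the letters. The table of RefSeq promoters used here (GRCm38.p6) was matched for 7 of the 10 members: Hif1a, Arnt, Egln1, Egln3, Vhl, Adm and Ero1l, the last under its later symbol Ero1a. The 250 bases before each gene's start were searched on both strands for ACGTG and GCGTG, the core of the response element, and matches are in capitals, so that a match on the other strand reads CACGT or CACGC. Of the 9988 such windows of tested genes, 57.2% held at least 1 match, 28.1% at least 2 and 12.1% at least 3. Among the members 6 of 7 windows held a match, and Vhl held none. Printed below, 5′ to 3′ on the gene's own strand, are Hif1a and Ero1l, whose levels lay above the controls, and Egln1, Egln3 and Adm, whose levels did not.
Hif1a, chr12:73907617-73907866, plus strand: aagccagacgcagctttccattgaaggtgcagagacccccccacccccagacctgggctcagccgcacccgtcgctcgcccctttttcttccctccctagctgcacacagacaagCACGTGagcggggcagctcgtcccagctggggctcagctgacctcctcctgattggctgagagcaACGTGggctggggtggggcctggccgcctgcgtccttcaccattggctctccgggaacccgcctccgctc
Ero1l, chr14:45318573-45318822, minus strand: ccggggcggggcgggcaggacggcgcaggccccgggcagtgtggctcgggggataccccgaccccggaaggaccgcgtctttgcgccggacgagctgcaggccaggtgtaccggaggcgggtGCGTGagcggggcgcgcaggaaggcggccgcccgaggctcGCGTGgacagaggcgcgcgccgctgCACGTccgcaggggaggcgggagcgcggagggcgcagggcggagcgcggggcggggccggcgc
Egln1, chr8:124949255-124949504, minus strand: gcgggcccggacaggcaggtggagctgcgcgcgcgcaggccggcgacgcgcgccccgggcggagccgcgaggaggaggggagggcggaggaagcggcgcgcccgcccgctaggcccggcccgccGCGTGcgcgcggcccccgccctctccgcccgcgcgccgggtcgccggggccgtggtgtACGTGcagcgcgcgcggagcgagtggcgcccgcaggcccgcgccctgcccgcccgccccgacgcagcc
Egln3, chr12:54203875-54204124, minus strand: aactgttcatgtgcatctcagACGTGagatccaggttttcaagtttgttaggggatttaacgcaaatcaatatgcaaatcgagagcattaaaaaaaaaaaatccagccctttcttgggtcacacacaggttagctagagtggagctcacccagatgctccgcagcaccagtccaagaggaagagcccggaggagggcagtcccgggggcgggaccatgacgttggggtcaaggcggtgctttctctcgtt
Adm, chr7:110627407-110627656, plus strand: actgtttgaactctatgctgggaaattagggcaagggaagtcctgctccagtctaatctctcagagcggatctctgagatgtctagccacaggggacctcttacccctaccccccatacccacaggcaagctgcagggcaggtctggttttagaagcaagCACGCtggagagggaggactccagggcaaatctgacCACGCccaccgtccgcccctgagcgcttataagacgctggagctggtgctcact
Hif1a and Ero1l held 3 matches each, Egln1 and Adm 2 each, and Egln3 1. In Hif1a, 2 of the 3 matches are the same palindrome CACGTG read on both strands, which is also an E-box. The motif was held by members whose KO levels lay above the controls and by members whose levels did not. These 7 windows cannot relate the motif to the levels. Matches were in 57.2% of windows of tested genes, and Ndrg1 and Bhlhe40 had no window here. A match is a string of letters and does not show binding.

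The libraries held between 12370092 and 18078620 reads, as recovered from the steps in the values. The ribosomal RNA precursor Rn45s took between 27.8% and 32.5% of reads in the controls and 25.4%, 31.2% and 14.95% in Tfam KO replicates 1, 2 and 3. The median log2 fold change over tested genes was 0.28 on the deposited scale. It was 0.01 after each library was divided by its size factor (0.828 to 1.33). The value of 0.01 follows largely from the method, which assumes that most genes do not differ. Whether the shift as deposited lies in the libraries' scale or in many genes that differ was not tested. The values below are FPKM divided by the size factor ("scaled FPKM"), and results on the deposited scale stand beside them. Tfam itself was at 3.385, 5.17 and 4.68 scaled FPKM in KO replicates 1 to 3 and at 5.599, 6.39 and 6.55 in the controls. The log2 fold change, -0.42, did not pass (SE 0.15, adjusted p = 0.152 in limma), nor did that as deposited -0.15 (adjusted p = 0.651). The whole gene was counted, so the value is a weak check of the deletion. Cardiac muscle markers were abundant in all libraries: Myl2 was at 3177 scaled FPKM or more and Tnnt2 at 1549 or more.

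None of the 10 members passed the threshold with size factors in limma, and 4 passed as deposited, each of them higher in KO hearts. The 4 were Hif1a, Ndrg1, Bhlhe40 and Ero1l. Among all tested genes 2.07% were higher and 2.5% lower with size factors, and 6.21% were higher and 1.16% lower as deposited. At an unadjusted p under 0.05 with size factors, 4 members were higher, the same 4, and 1, Egln1, was lower. Of all tested genes 8.87% were higher and 10.4% lower by that rule. In limma-voom on the recovered reads, 1 member (Ero1l) was higher and 0 were lower, beside 2.65% and 4.2% of all genes. The median log2 fold change of the members was -0.01 with size factors and 0.28 as deposited, beside 0.01 and 0.28 over all tested genes. With size factors 5 members were above 0 and 5 below, so the median describes no common direction.

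**Figure D1:**
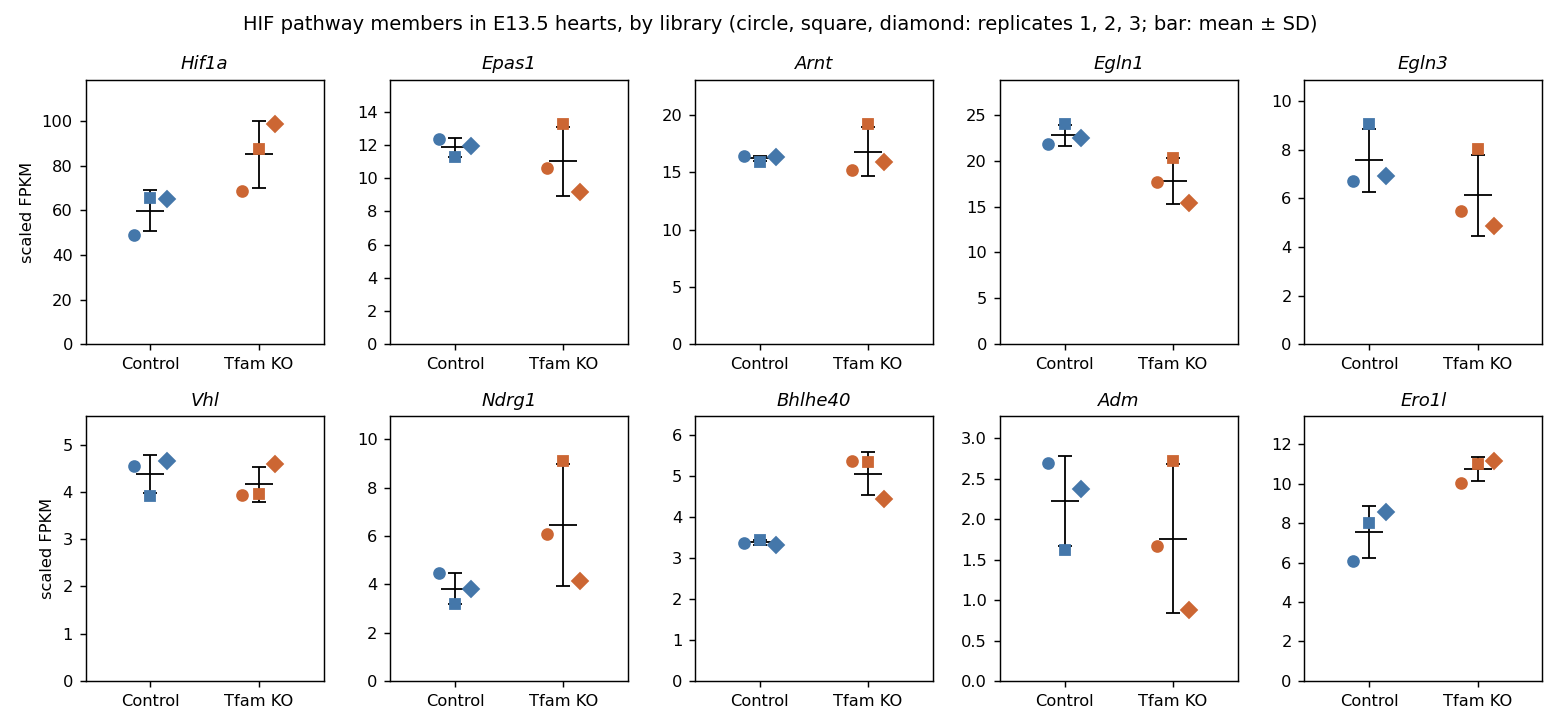
Scaled FPKM (vertical axes, from 0) of the 10 members in the 3 Control and 3 Tfam KO libraries, with each library as a point and the mean ± SD as a bar. The KO libraries lie above all controls in Hif1a, Bhlhe40 and Ero1l and below all controls in Egln1, and the groups overlap in the other 6.

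Of the HIF subunits, Hif1a was the most abundant member in these hearts. It was at 68.7, 87.5 and 98.7 scaled FPKM in KO replicates 1, 2 and 3 and at 49.0, 65.5 and 65.0 in control replicates 1, 2 and 3 (84.95 ± 15.2 against 59.9 ± 9.37, SD, n = 3 each). All 3 KO libraries lay above all 3 controls, with KO replicate 1 close to the upper controls. The log2 fold change was 0.49 (95% interval 0.13 to 0.86, a fold of 1.41, limma adjusted p = 0.131). As deposited it was 0.82 (adjusted p = 0.00959), and in limma-voom 0.50 (adjusted p = 0.0618). Between 2692 and 10430 reads stood behind these values, so counting error is small beside the spread of the pools.

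Epas1 encodes the alpha subunit of HIF-2, which is known for its expression in endothelium. It was at 10.6, 13.3 and 9.165 scaled FPKM in KO libraries and 12.4, 11.25 and 11.9 in controls, with KO replicates on both sides of the controls. Its log2 fold change was -0.11 (95% interval -0.42 to 0.20, limma adjusted p = 0.731), and as deposited 0.19 (adjusted p = 0.569), so the direction turned with the scale. Arnt, the shared partner, was at 15.2, 19.2 and 15.9 scaled FPKM in KO libraries and 16.4, 15.9 and 16.3 in controls. The groups overlapped, and the interval of its log2 fold change ran from -0.23 to 0.31 (estimate 0.04, limma adjusted p = 0.894; as deposited 0.35, adjusted p = 0.298). The 3 controls were close together (16.2 ± 0.244), and the KO libraries spread more widely (16.8 ± 2.13).

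The relatives of the subunits did not pass either. Hif3a, whose products include inhibitors of HIF, was at 16.3 ± 4.14 scaled FPKM in KO hearts and 19.5 ± 1.03 in controls (log2 fold change -0.27, adjusted p = 0.414, and 0.03 as deposited). Arnt2 was low in both groups, at 1.21 ± 0.179 and 1.15 ± 0.334. Arntl, the clock partner that is related to ARNT, was at 1.88 ± 0.182 and 1.35 ± 0.308 (log2 fold change 0.30, adjusted p = 0.289). Of the 6 genes tested, subunits and relatives together, 0 passed with size factors or in limma-voom. Hif1a alone was higher at an unadjusted p under 0.05 with size factors. As deposited, too, Hif1a was the single gene of the 6 that passed.

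Among the oxygen sensors, Egln1 encodes PHD2, the main prolyl hydroxylase acting on HIF-1 alpha. It was at 17.7, 20.3 and 15.4 scaled FPKM in KO libraries and 21.8, 24.0 and 22.5 in controls (17.8 ± 2.47 against 22.8 ± 1.14). All KO libraries lay below all controls after scaling, whereas the groups overlapped as deposited. Its log2 fold change was -0.35 (95% interval -0.63 to -0.07, limma adjusted p = 0.165), and -0.04 as deposited (adjusted p = 0.918). Neither passed, and the deposited value gives no direction, as its 95% interval ran from -0.49 to 0.42.

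Egln3 encodes PHD3, a hydroxylase that is itself a known HIF target. It was at 5.465, 8.03 and 4.88 scaled FPKM in KO libraries and 6.74, 9.07 and 6.93 in controls, and the groups overlapped. Replicate 2 was the highest library in both groups. The log2 fold change was -0.28 (95% interval -0.68 to 0.11, limma adjusted p = 0.43) and 0.00 as deposited (adjusted p = 0.996). Egln2, the third hydroxylase gene and the closest relative, was at 6.52 ± 1.36 in KO hearts and 9.36 ± 2.52 in controls (log2 fold change -0.45, adjusted p = 0.261, and -0.16 as deposited). Its controls spread from 6.45 to 10.8. The sum of the 3 hydroxylase genes was at 30.6, 35.5 and 25.2 scaled FPKM in the KO libraries and at 39.4, 39.55 and 40.2 in the controls. The controls were close together, and all KO libraries lay below them on this scale (two-sided exact permutation p = 0.1, 0.12 adjusted). This p is the smallest that 3 against 3 allows. Egln1 was the largest part of the sum in every library and already lay below all controls in KO hearts. The p therefore adds little to the values of Egln1 itself. As deposited the groups overlapped in each of the 3 genes, and the sum was not tested on that scale.

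Vhl encodes the substrate receptor of the ubiquitin ligase that removes hydroxylated HIF alpha. It was at 3.94, 3.97 and 4.59 scaled FPKM in KO libraries and at 4.54, 3.92 and 4.67 in controls, and each KO library lay within the range of the controls. Its log2 fold change was -0.06 (95% interval -0.33 to 0.22, limma adjusted p = 0.85), and 0.21 as deposited (adjusted p = 0.519). Of the 12 genes of oxygen sensing and HIF turnover tested, which also hold the ligase parts Cul2, Rbx1, Tceb1 and Tceb2 and the asparaginyl hydroxylase Hif1an, 0 passed with size factors or in limma-voom, although an unadjusted p under 0.05 was reached by 2 that were higher and 1 that was lower. As deposited 2 were higher, Siah1a and Siah2. They encode ubiquitin ligases known to act on the prolyl hydroxylases, and stood at 0.42 and 0.52 in log2 fold change after scaling (adjusted p = 0.132 and 0.131). In both, all KO libraries lay above all controls.

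Among the HIF targets, Ero1l was the member that passed in limma-voom. It encodes a thiol oxidase of the endoplasmic reticulum that drives disulfide formation, and is known as a target of HIF and of the stress factor CHOP (Ddit3). It was at 10.04, 10.99 and 11.2 scaled FPKM in KO libraries and 6.065, 8.02 and 8.54 in controls (10.7 ± 0.611 against 7.54 ± 1.31). All KO libraries lay above all controls, and the KO libraries were close together. The log2 fold change was 0.47 (95% interval 0.16 to 0.77, a fold of 1.38, limma adjusted p = 0.0876). It passed as deposited (0.76, adjusted p = 0.0192) and in limma-voom (0.51, adjusted p = 0.0488).

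Bhlhe40 encodes a transcriptional repressor of the clock and of cell differentiation that hypoxia is known to induce. It was at 5.375, 5.34 and 4.44 scaled FPKM in KO libraries and at 3.37, 3.44 and 3.32 in controls (5.05 ± 0.530 against 3.38 ± 0.0582). All KO libraries lay above all controls. Its log2 fold change was 0.46 (95% interval 0.19 to 0.73, a fold of 1.38), and its adjusted p in limma, 0.0598, was the smallest of the members with size factors. As deposited it was 0.73 (adjusted p = 0.0239), and in limma-voom 0.56 (adjusted p = 0.0606). Its relative Bhlhe41 was at 1.53 ± 0.315 in KO hearts and 1.95 ± 0.873 in controls (log2 fold change -0.18, adjusted p = 0.714).

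Ndrg1 encodes a stress- and hypoxia-induced protein linked to differentiation. It was at 6.095, 9.12 and 4.15 scaled FPKM in KO libraries and at 4.47, 3.19 and 3.80 in controls (6.455 ± 2.51 against 3.82 ± 0.642). KO replicate 3 lay within the control range and KO replicate 2 was more than 2 times the control mean, so the groups overlapped. The log2 fold change was 0.58 (95% interval 0.09 to 1.07, a fold of 1.498, limma adjusted p = 0.178), the largest among the members. As deposited it was 0.85 (adjusted p = 0.00615). Without Tfam KO replicate 3 it passed with size factors, at 0.82 (adjusted p = 0.0467), and without Tfam KO replicate 2 it was at 0.34 (adjusted p = 0.414). Its relatives Ndrg2, Ndrg3 and Ndrg4 had log2 fold changes of 0.04, -0.03 and -0.37 (adjusted p = 0.923, 0.906 and 0.232).

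Adm encodes adrenomedullin, a peptide that widens vessels and is needed for vessel and lymphatic growth in the embryo. It was the lowest member, at 1.675, 2.73 and 0.881 scaled FPKM in KO libraries and 2.70, 1.62 and 2.38 in controls. The groups overlapped throughout. Only 24 to 60 reads per library stood behind these values, the fewest of the members. The log2 fold change was -0.27 (95% interval -0.79 to 0.25, limma adjusted p = 0.595) and -0.08 as deposited (adjusted p = 0.812). It was -0.60 in limma-voom (adjusted p = 0.406), -0.51 without Tfam KO replicate 2 and -0.0165 without Tfam KO replicate 3.

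**Figure D2:**
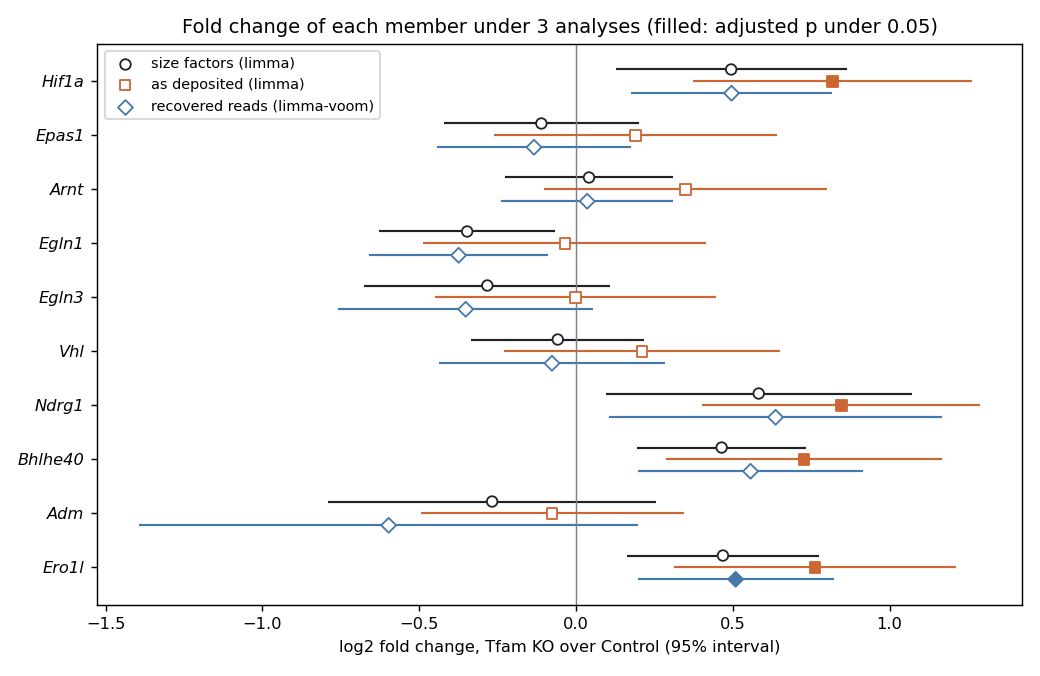
Log2 fold change of each member (horizontal axis, Tfam KO over Control) with its 95% interval in limma with size factors, limma as deposited and limma-voom on recovered reads. Filled points passed the adjusted threshold. The deposited scale moves all members to the right, and Hif1a, Ndrg1, Bhlhe40 and Ero1l pass there.

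The 4 calls on the deposited scale did not all rest on every library. They remained without Tfam KO replicate 2, where 2237 of all genes were higher on that scale. When Control replicate 3 was left out, Hif1a, Ndrg1 and Ero1l remained. Without Tfam KO replicate 1 only Hif1a passed, without Tfam KO replicate 3 or Control replicate 1 only Ndrg1, and without Control replicate 2 none did. With size factors the log2 fold change of Hif1a ranged from 0.35 to 0.64 over the 6 ways of leaving out a library, that of Ero1l from 0.33 to 0.56 and that of Bhlhe40 from 0.42 to 0.54, and none of these 3 passed in any of them. All KO libraries lay above all controls in 3 of 10 members with size factors, beside 12.5% of all tested genes, and below in 1 of 10, beside 11.6%. As deposited they lay above in 6 of 10, beside 25.6%, and below in 0, beside 2.34%.

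A ratio between genes of the same library does not depend on the library's scale, and FPKM is per length, so such ratios compare levels. The pairs were chosen after the members' values were seen. Hif1a was 3.88, 4.31 and 6.42 times Egln1 in the KO libraries and 2.25, 2.73 and 2.89 times in the controls. The ratios of KO libraries all lay above those of controls (4.87 ± 1.36 against 2.62 ± 0.332). Ero1l was 0.567, 0.541 and 0.727 times Egln1 in the KO libraries and 0.278, 0.334 and 0.380 times in the controls, again with no overlap. Hif1a was 6.48, 6.59 and 10.8 times Epas1 in the KO libraries and 3.96, 5.83 and 5.45 times in the controls. KO replicate 3 stood highest in each of these 3 ratios. The ratio of Egln1 to Egln3 did overlap, at 2.97 ± 0.387 in KO hearts and 3.04 ± 0.343 in controls. In a two-sided exact permutation test the first 3 ratios each gave p = 0.1, the smallest that 3 against 3 allows (0.12 adjusted over the 6 quantities tested), and the last gave p = 0.6. For the ratios to Egln1 this outcome was fixed beforehand. After scaling, Hif1a and Ero1l already lay above all controls and Egln1 below them, so that p adds nothing to the members' own values.

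**Figure D3:**
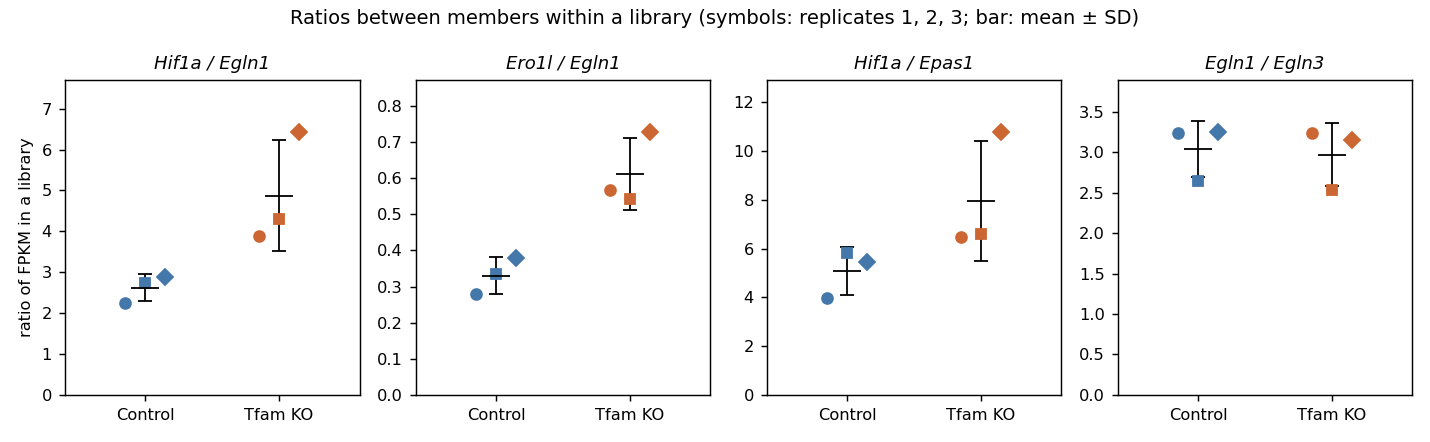
Ratio of FPKM between members within each library (vertical axes, from 0), with libraries as points and mean ± SD as bars. Hif1a and Ero1l relative to Egln1, and Hif1a relative to Epas1, are higher in every KO library than in every control, and Egln1 relative to Egln3 overlaps.

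By level in the controls the members ran from Hif1a (59.9) through Egln1 (22.8), Arnt (16.2), Epas1 (11.85), Egln3 (7.58), Ero1l (7.54), Vhl (4.38), Ndrg1 (3.82) and Bhlhe40 (3.38) to Adm (2.23), all in mean scaled FPKM. The control ranges of neighbours overlapped between Egln3 and Ero1l, between Vhl and Ndrg1 and between Ndrg1 and Bhlhe40. The other neighbours were apart in the 3 controls. Over all 6 libraries Egln1 also overlapped with Arnt.

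The members' patterns over the 6 libraries were compared with each other and with the other tested genes of the pathway lists, 86 genes for each member, by Pearson's r of log2(scaled FPKM + 1), as a description. Hif1a and Ero1l were most like each other (r = 0.940, and 0.849 when the group means were taken out). Epas1 and Adm were likewise most like each other (0.968, and 0.964 with group means out). Egln1 was most like Higd1a (0.975), Egln3 most like Bnip3 (0.940), Ndrg1 most like Aldoa (0.943) and Bhlhe40 most like Eno2 (0.975, but 0.704 with group means out). Arnt and Vhl had their nearest patterns in Gapdh (0.887) and Lox (0.888). Genes of the same library share its size factor, and each likeness is the highest of 86 over 6 points.

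The wider pathway was read from lists of genes outside the members. Of 77 such genes tested, Vegfa, Hk2 and Eno2 rose and Ramp1 fell on both scales. With size factors 3 were higher and 3 lower, as deposited 5 were higher and 1 lower, and in limma-voom 3 were higher and 5 lower. On both scales 2.07% of all tested genes were higher and 0.953% lower. The median log2 fold change of the 77 was -0.04 with size factors and 0.23 as deposited.

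**Figure D4:**
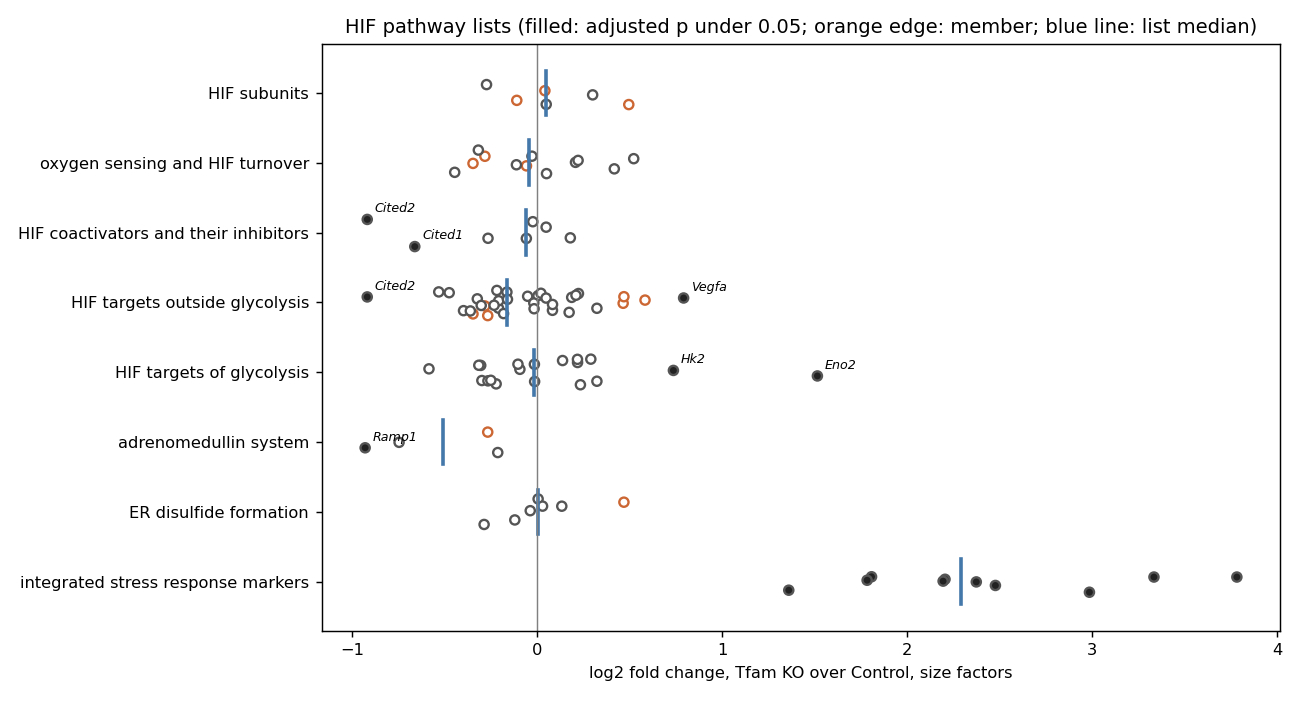
Log2 fold change with size factors (horizontal axis) of each tested gene in 7 HIF pathway lists and a list of integrated stress response markers, where filled points passed the adjusted threshold, orange edges mark members and blue lines mark list medians. Most pathway genes lie near 0 with few filled points, while the 10 stress response markers are all filled and above 1.

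Of 35 HIF targets outside glycolysis that were tested, members included, 1 was higher (Vegfa) and 1 lower (Cited2) with size factors, and 4 were higher and 0 lower as deposited. Over the list the median log2 fold change stood at -0.16 with size factors and 0.15 as deposited. Vegfa, the endothelial growth factor, was at 37.0, 52.75 and 42.8 scaled FPKM in KO libraries and at 23.2, 30.55 and 21.6 in controls, with no overlap (log2 fold change 0.79, SE 0.17, limma adjusted p = 0.0231). Its call with size factors was lost when KO replicate 2 (adjusted p = 0.0854), KO replicate 3 (0.0576), Control replicate 1 (0.0757) or Control replicate 3 (0.103) was left out, and with no filter on low genes (0.0792). The transferrin receptor gene Tfrc and the MYC antagonist gene Mxi1 were among the lower members of the list, at log2 fold changes of -0.53 and -0.48, and did not pass (adjusted p = 0.177 and 0.0936), although Mxi1 was lower in limma-voom (adjusted p = 0.0338). The mitophagy receptor gene Bnip3 was at 29.2 ± 6.43 scaled FPKM in KO hearts and 38.7 ± 6.94 in controls (log2 fold change -0.40, adjusted p = 0.246). The list's genes Car9, Car12 and Epo were not tested, and Epo was listed at 0 in all 6 libraries.

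Of 19 glycolytic HIF targets tested, 2 rose and 0 fell, with a list median log2 fold change of -0.02 with size factors and 0.23 as deposited. Eno2, a neuronal form of enolase, rose from 0.527, 0.318 and 0.541 scaled FPKM in the controls to 4.085, 3.10 and 2.465 in KO hearts (log2 fold change 1.51, SE 0.17, adjusted p = 0.000559). Between 9 and 26 reads per library stood behind its control values and 104 to 158 behind its KO values. Its mean before scaling was 0.42 FPKM in controls and 3.64 in KO hearts, so it met the filter of 1 FPKM only through the KO libraries. Hk2, the inducible hexokinase, rose from 12.3, 12.97 and 15.3 scaled FPKM to 22.9, 24.5 and 21.99 (log2 fold change 0.74, SE 0.12, adjusted p = 0.00666). Both also passed without each library in turn. The other genes named for these steps did not pass: the hexokinase gene Hk1 was at -0.32 (adjusted p = 0.167), with all KO libraries below all controls, and the enolase gene Eno1, whose reads can be split with near-identical copies, at 0.23 (adjusted p = 0.291), with all KO libraries above. At other steps, lactate dehydrogenase Ldha was at -0.22 (adjusted p = 0.39), the pyruvate dehydrogenase kinase Pdk1 at -0.27 (adjusted p = 0.358), Pgk1 at -0.02 (adjusted p = 0.961) and the glucose transporter Slc2a1 at 0.32 (adjusted p = 0.292), and none passed. Aldoc had the lowest value of the list (-0.58, adjusted p = 0.154).

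Among 7 coactivators and their inhibitors, 2 were lower and 0 higher with size factors and 0 passed as deposited. The same 2, Cited1 and Cited2, were lower in limma-voom (adjusted p = 0.00229 and 0.00198). Cited2 encodes a protein that competes with HIF for the coactivators p300 and CBP and is needed for heart development. It was at 7.53, 10.9 and 9.63 scaled FPKM in KO libraries and 23.1, 15.1 and 17.8 in controls, with no overlap (log2 fold change -0.92, SE 0.17, limma adjusted p = 0.0132). As deposited it was -0.62 (adjusted p = 0.0755), and its call with size factors was also lost without Control replicate 3 (adjusted p = 0.0505) and with no filter on low genes (0.0592). Cited1 was at 43.3, 47.8 and 47.6 in KO libraries and at 75.2, 73.55 and 72.1 in controls (log2 fold change -0.66, adjusted p = 0.00673), but -0.34 as deposited (adjusted p = 0.307). With size factors Cited1 also passed without each library in turn. The coactivator genes Ep300 and Crebbp were at 0.05 and -0.06 (adjusted p = 0.865 and 0.827).

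In the adrenomedullin system, Ramp1 fell and the groups overlapped in Adm itself. Ramp1, which turns the calcitonin receptor-like receptor into a receptor for CGRP, fell from 4.14 ± 0.394 to 1.71 ± 0.391 scaled FPKM (log2 fold change -0.93, SE 0.15, limma adjusted p = 0.00502, and -0.70 as deposited, adjusted p = 0.0262). Ramp2, which makes the same receptor one for adrenomedullin, was at 35.5, 27.8 and 19.2 in KO libraries and at 55.9, 44.2 and 37.95 in controls. Its groups did not overlap after scaling, and its log2 fold change of -0.75 (SE 0.21) passed in limma-voom (adjusted p = 0.0277) but not in limma (adjusted p = 0.0778, and 0.213 as deposited). The receptor gene Calcrl, which is endothelial, was at 6.90 ± 1.09 and 8.17 ± 1.28 (log2 fold change -0.21, adjusted p = 0.491, and 0.08 as deposited). The related peptide gene Adm2 was chosen after its values were seen. KO replicates 1 to 3 held 28, 14 and 39 of its reads, and control replicates 1 to 3 held 2, 0 and 0. Its mean of 0.913 FPKM over the 6 libraries fell under the filter, and in the fit of all 17876 genes above 0 its log2(scaled FPKM + 1) was 1.24 higher in KO hearts (SE 0.14, adjusted p = 0.00782). Of the list's 4 tested genes 0 were higher and 1 lower on both scales.

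**Figure D5:**
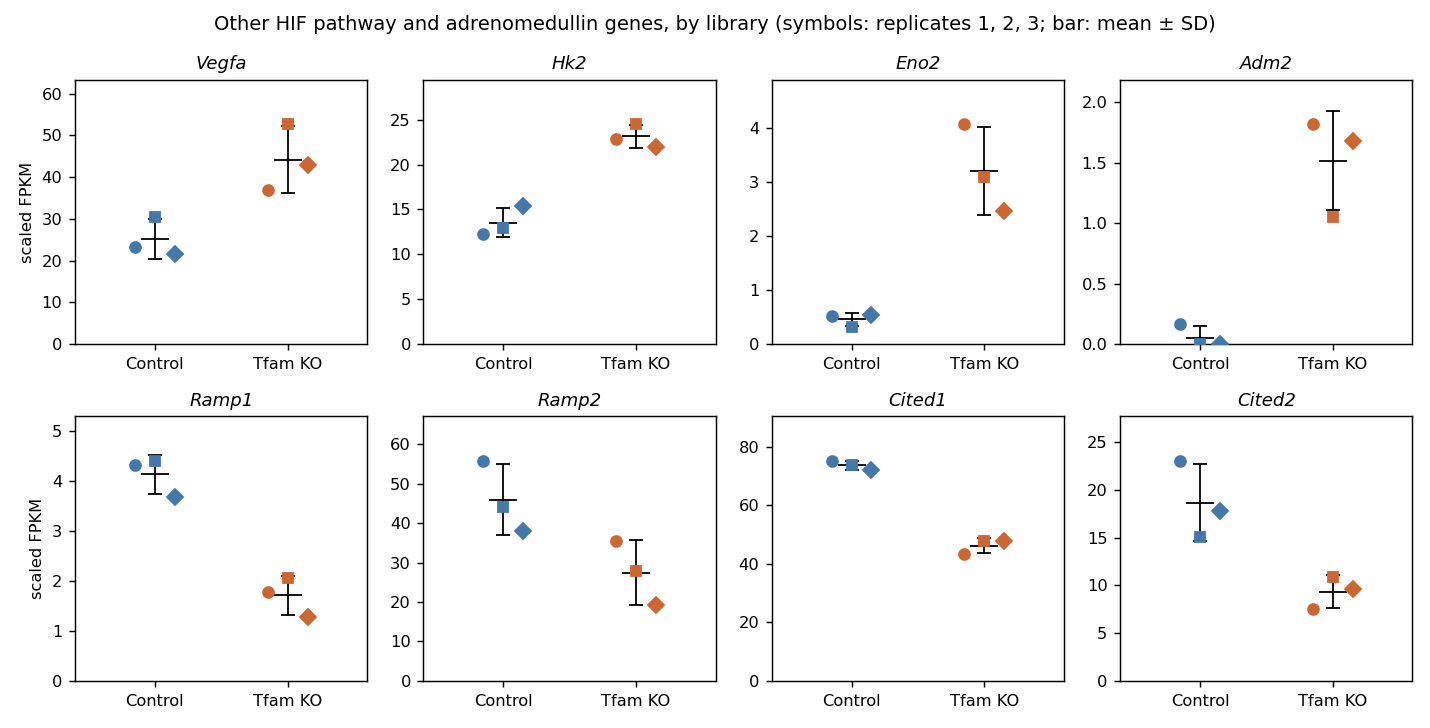
Scaled FPKM (vertical axes, from 0) of 8 further pathway genes in each library, with mean ± SD as bars. Vegfa, Hk2, Eno2 and Adm2 lie higher in every KO library, and Ramp1, Ramp2, Cited1 and Cited2 lie lower, with no overlap after scaling.

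Of 7 genes of disulfide formation tested, 0 passed with size factors, where Ero1l alone had an unadjusted p under 0.05, and Ero1l alone passed as deposited and in limma-voom. The disulfide isomerase genes P4hb and Pdia4 were at log2 fold changes of 0.00 and -0.12 (adjusted p = 0.988 and 0.654), Txndc5 at 0.13 and the peroxiredoxin Prdx4 at -0.29 (adjusted p = 0.719 and 0.335). Ero1lb, the relative of Ero1l, was at 0.622 ± 0.258 scaled FPKM in KO hearts and 0.798 ± 0.0827 in controls and was not tested.

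Markers of other programmes and cell types were read beside these values. All 10 tested markers of the integrated stress response were higher on both scales, with a median log2 fold change of 2.29 with size factors. Of these, Chac1 had a control mean of 0.126 FPKM before scaling and met the filter only through the KO libraries. Atf4 was at 174 ± 15.5 scaled FPKM in KO hearts and 49.3 ± 7.74 in controls, Ddit3 at 42.0 ± 7.01 and 6.68 ± 0.509, and Trib3 at 21.2 ± 4.44 and 1.19 ± 0.355. Their part in the levels of Ero1l, Ndrg1, Vegfa and Adm2 was not tested. The summed level of 8 endothelial markers ran from 138.9 to 146.8 scaled FPKM in KO libraries and from 141.2 to 146.3 in controls. With size factors or in limma-voom 0 of the 8 passed. At an unadjusted p under 0.05 with size factors 1 was higher, Emcn. It alone passed as deposited (log2 fold change 0.675, limma adjusted p = 0.0475). The summed level of 8 cardiomyocyte markers ran from 6433 to 12430 in KO libraries and from 10010 to 13200 in controls. With size factors 0 were higher and 2 lower, Nkx2-5 and Ttn, and 0 passed as deposited. In limma-voom Nkx2-5 and Myh7 were lower (adjusted p = 0.00641 and 0.0384), and Ttn had no value there. The summed level of 6 epicardial markers ran from 36.7 to 45.5 and from 34.3 to 47.2. That of 8 mesenchymal and smooth muscle markers ran from 490.3 to 561.5 and from 577.4 to 703.5. Acta2 was the largest part of each sum, at 194.8, 249.2 and 198.2 in KO libraries and 370, 359.1 and 348.4 in controls. The sums therefore do not stand for the list. Of 7 tested, Acta2 was lower with size factors (log2 fold change -0.75, adjusted p = 0.0116, and -0.43 as deposited, adjusted p = 0.194). Pdgfra, Pdgfrb and Postn went the other way, at 0.38, 0.40 and 0.37, past the threshold as deposited (adjusted p = 0.0443, 0.0419 and 0.0362) and not with size factors (0.232, 0.235 and 0.154), and the list's median was 0.26. That of 6 macrophage and leukocyte markers ran from 7.58 to 8.82 and from 6.78 to 9.84, and 5 neural markers summed to at most 2.71 in any library. That of 9 erythroid markers ran from 3348 to 10180 and from 6228 to 12740 (Hba-a1 was listed at 0), with 0 of 6 tested passing in limma or limma-voom and 1, which was lower, at an unadjusted p under 0.05. These are bulk samples, in which fewer cells of a type and less RNA per cell cannot be told apart. The part of these shifts in the members' values was not tested.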

How the data were processed

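Poly(A) RNA of whole hearts was sequenced in 6 libraries, each from 5 pooled hearts. The values the authors deposited are log2(FPKM + 1), where FPKM is a read number divided by transcript length and library total. The unit comes from the file names and the log base from the values. CASAVA 1.8.2, TopHat2 2.0.7, HTSeq 0.5.3 and build mm9 appear, without a stated role, in the submitters' processing notes. Strand, annotation and the FPKM formula are not given in the sources used here. The 3 coordinate columns hold placeholder words, so members have no positions from the files.

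FPKM was turned back from base 2. Library totals and reads were recovered from the steps that whole reads leave in the values (tolerance 1e-05 of a read for low values). Of 17876 genes above 0, 17875 gave whole reads, known up to a factor common to all libraries. Size factors by the median of ratios over 14083 genes put the libraries on a common scale ("scaled FPKM"), assuming that most genes do not differ.

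Genes averaging 1 FPKM or more (10807) were fitted with limma 3.58.1 (R 4.3.3) on log2(scaled FPKM + 1), with group as the only term and trended variances. Tests were two-sided, with Benjamini-Hochberg adjustment over all these genes and a threshold of 0.05. The same fit on the deposited scale stands beside it. A gene is said to have risen or fallen only where it passed on both scales. Fold changes on this scale understate the change of low genes. Intervals are 95% and come from the moderated fit. Alternatives were the deposited scale, upper-quartile scaling, a pseudocount of 0.25, no filter, a filter at 5 FPKM, no variance trend, limma-voom on the recovered reads, a replicate block and each library left out.

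The replicate numbers were not taken to pair the samples, and the block is treated only in the closing section. Outside the members, genes were named by a rule: past the threshold on both scales, the 2 largest and 2 smallest changes of a list, and relatives of members. Genes outside the rule, given as further examples from the lists, were chosen after their values were seen. The members and lists were chosen with earlier results of these data known. Promoter sequences are from RefSeq (GRCm38.p6) and were not joined to positions in the files.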

Additional observations from a re-analysis of the deposited data

How the results depend on the processing

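As deposited, 671 genes were higher and 125 lower, so that 84.3% of calls were higher, against 224 and 270 (45.3% higher) with size factors. Lower genes numbered 143 with no filter and 454 in limma-voom. With each library left out, higher genes numbered 140 to 221 and lower genes 119 to 342. The number of higher members, 0 with size factors, was 4 as deposited, 1 in limma-voom and 0 to 1 with each library left out, and the 4 calls as deposited became 0 to 4 (chosen after the data were seen). As deposited, the log2 fold changes of Hif1a, Ndrg1, Bhlhe40 and Ero1l were 0.82, 0.85, 0.73 and 0.76 and passed. Ero1l also passed in limma-voom (0.51). Leave-one-out ranges were 0.34 (without Tfam KO replicate 2) to 0.82 (without Tfam KO replicate 3) for Ndrg1, -0.51 to -0.0165 for Adm, -0.44 to -0.25 for Egln1, -0.46 to -0.15 for Egln3, -0.12 to -0.017 for Vhl, -0.24 to 0.0049 for Epas1, which was above 0 without Tfam KO replicate 3, and -0.0499 to 0.10 for Arnt, which was below 0 without Tfam KO replicate 2. As deposited the direction turned for the members Epas1 (0.19) and Vhl (0.21). Among other genes given with a fold change it turned for Hif3a (0.0339), Calcrl (0.0758), Pdk1 (0.0467), Ldha (0.10), Pgk1 (0.31), Ndrg3 (0.26), Crebbp (0.24), Pdia4 (0.20), Prdx4 (0.0325), Hk1 (0.0052) and Bhlhe41 (0.003). All of these genes were below 0 with size factors and moved up as deposited. The median over all tested genes moved likewise, from 0.01 to 0.28. The cause of that common shift was not tested.

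Whether the replicate numbers pair the samples is not known. The correlations of same-numbered deviations were 0.36, 0.07 and 0.16, and Tfam KO replicate 3 was not most like its own number. These values cannot decide it. With a replicate block 2 members were higher, Hif1a (0.49, adjusted p = 0.0295) and Ero1l (0.47, adjusted p = 0.0466), and 287 genes were higher and 394 lower. Upper-quartile scaling, the pseudocount of 0.25, no filter and no variance trend changed no member's call, nor did a filter at 5 FPKM for the members above it (Bhlhe40, Vhl and Adm had no value there). Depth limits Adm most, at 24 to 60 reads, and 3 libraries a group limit every member.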
